A study of Homo sapiens with 6 samples.

Results

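The epithelial keratins examined here are 10 genes that encode intermediate filament proteins of basal and luminal epithelial cells, namely KRT5, KRT6A, KRT7, KRT8, KRT13, KRT14, KRT15, KRT17, KRT18 and KRT19. They were taken by gene name from the deposited count table, where all 10 have exactly 1 row each among 21494 genes. RNA-seq was carried out on 3 samples with a control shRNA (Control sh) and 3 samples with an shRNA against VprBP (VprBP sh), the protein encoded by DCAF1. The cells are labelled as G361, a human melanoma line, with LD611 entered as their source, and the paper's methods describe lentiviral expression of 1 shRNA against the coding region of VprBP, followed by selection with puromycin. The Control sh samples carry the genotype WT and the VprBP sh samples the genotype DCAF1 Knockdown. Nothing in the labels says whether the 3 samples of a group were separate cultures, so p-values measure the spread between these samples, which may be technical.

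Keratins are built in pairs. A type II keratin (KRT5, KRT6A, KRT7 and KRT8 here) joins a type I keratin (KRT13, KRT14, KRT15, KRT17, KRT18 and KRT19 here), and neither kind makes a filament alone. Basal cells of stratified epithelia are known for KRT5 with KRT14 and KRT15, while simple and luminal epithelia are known for KRT8 with KRT18, joined by KRT7 and KRT19. Melanocytes are not epithelial cells, and their intermediate filament protein is vimentin.

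The labelled identity of the cells was checked in the same table before the keratins were compared. Total estimated counts ran from 18195949 to 26883948 per sample, and the groups overlapped in depth. Normalized counts below are estimated counts scaled by upper quartile factors. DCAF1, the targeted gene, was measured at 688, 893 and 884 counts in the Control sh samples and at 681, 488 and 628 in the VprBP sh samples. Its log2 fold change was -0.58 (standard error, SE, 0.17, edgeR adjusted p = 0.0125), which is short of 2-fold. The paper also examined the knockdown in G361 cells by Western blot, and these RNA counts do not measure protein. Of 8 melanocyte markers, 4 have a row in the table analysed. MITF, the factor that drives the lineage, had 154 to 312 counts per sample and PMEL 28 to 46, while MLANA and TYRP1, melanosome proteins, had at most 5 counts in any sample. Summed over the list, Control sh held 199 to 236 and VprBP sh 244 to 308 normalized counts. For 10 epithelial markers that are not keratins, the sum lay between 65110 and 77428 normalized counts for Control sh and between 47616 and 62508 for VprBP sh. In summed counts both groups thus held far more of the epithelial markers than of the markers of the labelled lineage. Mitochondrial genes took 1.96% to 1.98% of counts in Control sh against 4.10% to 4.48% in VprBP sh, and the part of this share in the results was not tested. At chromosome 9p, CDKN2A, CDKN2B and DMRTA1 stood at 0 counts throughout Control sh and were at least 973-fold, 237-fold and 31.0-fold higher in VprBP sh against a floor of 3 counts per sample. MTAP beside them had 2 to 6 counts per Control sh sample and 858 to 1205 per VprBP sh sample. The effect of the shRNA and a difference between the cells of the groups cannot be told apart in these samples, and every keratin difference below is a difference between these groups. RNA was taken from whole cultures, so that fewer cells of a type and less RNA per cell cannot be told apart either.

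The basal and the luminal keratins differed in direction and size. Of the 6 basal or stratified keratins, 5 fell in VprBP sh, KRT5 by 18.6-fold and KRT17, KRT13, KRT6A and KRT14 by larger factors, and KRT15 was lower by 1.86-fold. Of the 4 luminal or simple keratins, KRT8, KRT18 and KRT19 were higher by 1.39-fold to 2.05-fold, and KRT7 was lower by 1.63-fold. A gene was called when edgeR's quasi-likelihood test gave a Benjamini-Hochberg adjusted p under 0.05 with a fold change over 2. By this rule 7 of the 10 members were called, 2 as higher and 5 as lower, where 46.4% of all 16756 genes tested were called, 24.5% as higher and 22.0% as lower. All 10 members had an adjusted p under 0.05, the largest being 0.000804 for KRT18 (edgeR). The median log2 fold change was -8.10 for the 6 basal or stratified members and 0.74 for the 4 luminal or simple members, beside 0.08 for all genes tested. For each of the 10 the values of the groups did not overlap, which also held for 79.5% of all genes tested. For each member the normalized counts gave p = 0.1 in a two-sided exact permutation test, the smallest value within reach of 3 samples against 3.

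**Figure D1:**
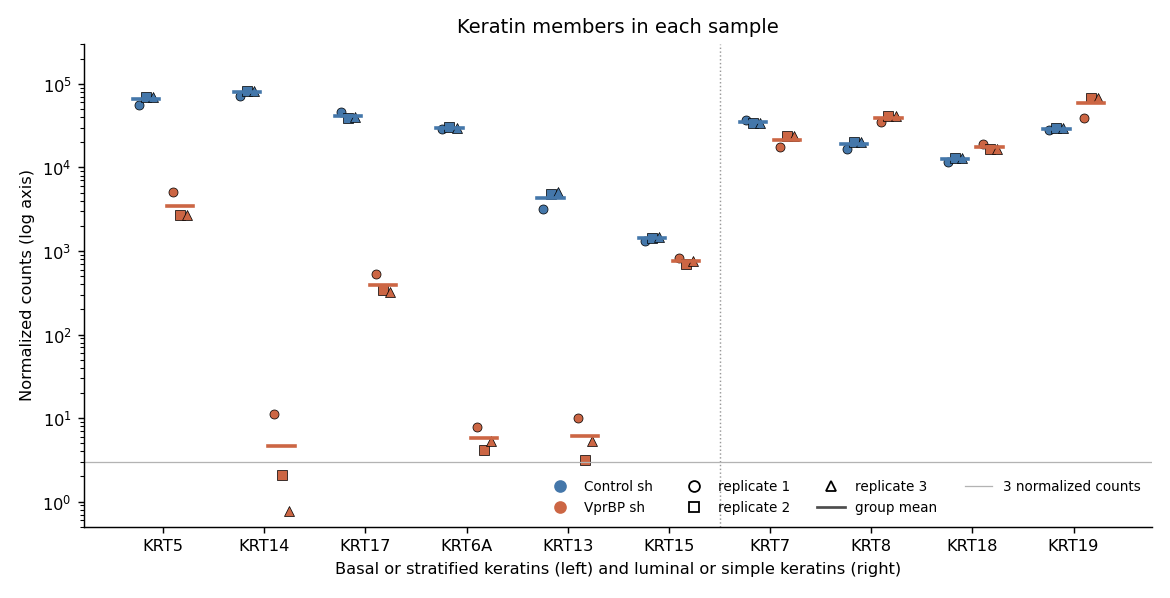
Normalized counts of the 10 keratins in each sample, on a log axis. Points are samples (circle, square and triangle for replicates 1, 2 and 3), short bars are group means, and the grey line marks 3 normalized counts. The VprBP sh values of KRT14, KRT6A and KRT13 lie between 0.767 and 11.2, while those of KRT7, KRT8, KRT18 and KRT19 lie between 16494 and 68595.

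KRT5 and KRT14 form the filament of basal cells. KRT5 (ENSG00000186081.12, chromosome 12 of hg38, 52514575 to 52520530, minus strand) was measured at 55855, 69250 and 69862 normalized counts in the Control sh samples and at 5051, 2683 and 2729 in the VprBP sh samples. The groups lie far apart, and within VprBP sh replicate 1 was 1.87 times the mean of the other 2 samples. The group values were 64989 ± 7916 and 3488 ± 1354 (SD, n = 3), with log2 fold change -4.22 (SE 0.26, edgeR adjusted p = 3.56e-07). KRT5 thus fell and yet kept at least 2582 counts in each VprBP sh sample.

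Only 2 of the 10 keratins, KRT5 and KRT8, have a window in the set of RefSeq promoters used here, and that of KRT8 is set aside below. The promoter shown is that of KRT5. It is the 250 bases before the RefSeq start of transcription on GRCh38.p14, chr12:52520395-52520644, read on the minus strand from 5′ to 3′, and the start at 52520394 is also that of the canonical transcript in GENCODE 44. The capitals mark a copy of ATAAAA, an A/T-rich hexamer of the kind that holds TATA boxes, which begins 29 bases before the start.
KRT5: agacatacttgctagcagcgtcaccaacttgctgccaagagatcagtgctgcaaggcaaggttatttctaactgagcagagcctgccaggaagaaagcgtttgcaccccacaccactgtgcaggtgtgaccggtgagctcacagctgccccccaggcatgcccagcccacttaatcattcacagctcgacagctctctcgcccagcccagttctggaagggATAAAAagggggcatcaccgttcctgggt
On either strand, ATAAAA occurs in 14.8% of the 35116 promoter windows of the same length, and in 8.76% on the strand of the gene. The window holds no TATAAA (10.7% of windows), no TGANTCA, the site of AP-1 factors (6.57%), no GGGCGG, the core of Sp1 sites (42.6%), and no GCCNNNGGC, the site of AP-2 factors (19.8%), each searched on both strands. CANNTG, the E-box, occurs 2 times, and 61.8% of windows hold at least 1 copy. KRT8 also has a window in this RefSeq table, but its start at 52926469 is not the canonical start of GENCODE 44 at 52905076, and that window is not printed.

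KRT14 (ENSG00000186847.6, chromosome 17, 41582279 to 41586895, minus strand), the type I partner of KRT5, was measured at 62464, 75812 and 86797 counts in the Control sh samples and at 10, 2 and 1 in the VprBP sh samples. Per length it was the most abundant member in every Control sh sample, and it was close to absent from the VprBP sh samples. After normalization the means were 79034 ± 5746 and 4.67 ± 5.66 (SD, n = 3), with log2 fold change -14.18 (SE 0.34, edgeR adjusted p = 1.45e-09). Over the group, the 13 counts left in VprBP sh give a ratio of 19297, with a 95% exact Poisson interval of 11285 to 36241 that covers counting error only. Replicate 1 holds 10 of the 13 counts. Without it the log2 fold change was -15.74, and without VprBP sh replicate 3, which holds 1 count, -13.55. Among all genes tested, 28 had a larger fall by fitted log2 fold change.

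KRT17 (ENSG00000128422.18, chromosome 17, 41619442 to 41624842, minus strand), a type I keratin of basal and appendage cells that is induced in wounded epithelium, had 45830, 39529 and 39872 normalized counts in Control sh. In VprBP sh it had 526, 340 and 319. The groups stand 106-fold apart, and the log2 fold change was -6.73 (SE 0.21, edgeR adjusted p = 5.75e-09). KRT6A (ENSG00000205420.11, chromosome 12, 52487176 to 52493257, minus strand), a type II keratin of the same activated and appendage epithelium, was measured at 24689, 27681 and 31319 counts in the Control sh samples and at 7, 4 and 7 in the VprBP sh samples. Its log2 fold change was -12.31 (SE 0.15, edgeR adjusted p = 1.14e-10), and the 18 counts left in VprBP sh give a ratio of 5182 with a 95% exact Poisson interval of 3279 to 8744. KRT13 (ENSG00000171401.15, chromosome 17, 41500981 to 41505705, minus strand), the type I keratin of the suprabasal layers of internal stratified epithelia, was measured at 2740, 4436 and 5317 counts in the Control sh samples and at 9, 3 and 7 in the VprBP sh samples. It was the member that varied most within Control sh, where replicate 1 was 0.644 times the mean of the others after normalization. Its log2 fold change was -9.47 (SE 0.31, edgeR adjusted p = 6.90e-09), and the 19 counts left give a ratio of 733 with an interval of 469 to 1217.

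KRT15 (ENSG00000171346.16, chromosome 17, 41513745 to 41522529, minus strand), a type I keratin of basal progenitor cells, was the basal keratin with the smallest difference. It was measured at 1329, 1447 and 1468 normalized counts in the Control sh samples and at 830, 698 and 754 in the VprBP sh samples. The groups do not overlap, and the means were 1415 ± 75 and 761 ± 66 (SD, n = 3). The log2 fold change of -0.90 (SE 0.10, edgeR adjusted p = 2.15e-05) is short of 2-fold, and KRT15 was not called. With DESeq2 it was -1.01 and passed the cutoff.

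The luminal keratins were abundant in both groups. KRT8 (ENSG00000170421.13, chromosome 12, 52897187 to 52949954, minus strand), the type II keratin of simple epithelia, was measured at 16771, 20118 and 20123 normalized counts in the Control sh samples and at 34715, 41064 and 41146 in the VprBP sh samples. Every VprBP sh sample was above every Control sh sample, with means of 19004 ± 1934 and 38975 ± 3689 (SD, n = 3) and log2 fold change 1.04 (SE 0.11, edgeR adjusted p = 1.36e-05). KRT18 (ENSG00000111057.11, chromosome 12, 52948871 to 52952906, plus strand), its type I partner, was measured at 11522, 12988 and 12902 normalized counts in the Control sh samples and at 18829, 16494 and 16715 in the VprBP sh samples. It was higher by 1.39-fold, with log2 fold change 0.48 (SE 0.09, edgeR adjusted p = 0.000804), and was not called.

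KRT19 (ENSG00000171345.13, chromosome 17, 41523617 to 41528308, minus strand), the smallest keratin and a type I keratin of luminal and ductal cells, was measured at 28066, 29707 and 29461 normalized counts in the Control sh samples and at 39135, 68595 and 68195 in the VprBP sh samples. Replicate 1 of VprBP sh was 0.572 times the mean of the other 2, so that the group spread widely, at 58642 ± 16895 against 29078 ± 885 (SD, n = 3). The log2 fold change was 1.01 (SE 0.19, edgeR adjusted p = 0.000755), and 1.23 without VprBP sh replicate 1. KRT7 (ENSG00000135480.17, chromosome 12, 52232520 to 52252186, plus strand), a type II keratin of glandular and transitional epithelium, was measured at 36815, 34191 and 34248 normalized counts in the Control sh samples and at 17540, 23695 and 23493 in the VprBP sh samples. It was the luminal keratin that went the other way, with log2 fold change -0.70 (SE 0.12, edgeR adjusted p = 0.000427), and it was not called.
The calls of KRT8 and KRT19 sit at the 2-fold cutoff. With TMM factors their log2 fold changes were 0.94 and 0.91, and with DESeq2 0.92 and 0.89. Neither was called without Control sh replicate 1 (0.95 and 0.99), without VprBP sh replicate 2 (0.99 and 0.88) or without VprBP sh replicate 3 (0.99 and 0.89), although the adjusted p stayed under 0.05 in each of these fits.

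The makeup of the message from these 10 keratins differed between the groups. The 10 members together took 1.25% to 1.38% of all counts per Control sh sample and 0.574% to 0.750% per VprBP sh sample. To compare genes, normalized counts were divided by the length of the canonical transcript in kilobases. Of the summed level per kilobase, the 6 basal or stratified keratins held 65.5%, 66.4% and 66.5% in the Control sh samples and 4.15%, 1.83% and 1.87% in the VprBP sh samples. The luminal or simple keratins held the rest, a mean of 33.9% ± 0.6 and 97.4% ± 1.3 (SD, n = 3). Keratins outside the 10 members are left out of these shares. Among them KRT4, a keratin of internal stratified epithelia, averaged 66.7 normalized counts per kilobase over the Control sh samples. Over the VprBP sh samples KRT4 averaged 2607, above each of the 6 basal or stratified members. KRT16 moved the other way, from a mean of 522 to 42.9. Shares that include these genes were not computed. KRT19 alone went from 11.4% ± 0.1 to 45.2% ± 6.6 of the summed level, and KRT14 from 26.4% ± 0.9 to 0.00362% ± 0.00478. The type II share was 39.7%, 40.8% and 40.8% in Control sh and 43.4%, 38.6% and 38.6% in VprBP sh, so that the groups overlapped in this share.

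**Figure D2:**
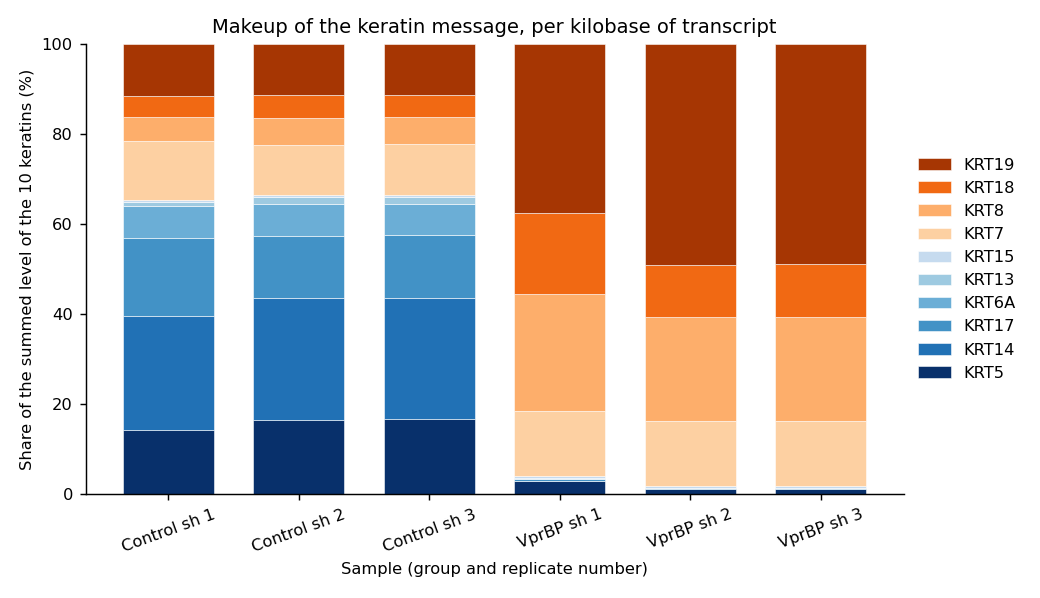
Share of each keratin in the summed level of the 10 members, in percent of normalized counts per kilobase of canonical transcript, for each sample. Blue shades are basal or stratified keratins and orange shades luminal or simple ones. The blue part fills 65.5% to 66.5% of each Control sh bar and 1.83% to 4.15% of each VprBP sh bar.

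In Control sh, KRT14 led with 48309 ± 3512 normalized counts per kilobase (SD, n = 3). KRT5 (29039 ± 3537) and KRT17 (27517 ± 2335) came next and overlapped across samples, and so did KRT7 (21591 ± 922) and KRT19 (20919 ± 637). KRT6A, KRT8, KRT18, KRT13 and KRT15 followed in that order without overlap, down to 826 ± 44 for KRT15. In VprBP sh the order began with KRT19 at 42188 ± 12154 and KRT8 at 21847 ± 2068 normalized counts per kilobase. KRT7 (13278 ± 2152) and KRT18 (12276 ± 912) overlapped. KRT5 was the first basal keratin in this order, at 1558 ± 605, ahead of KRT15 at 444 ± 38 and KRT17 at 260 ± 75, and KRT13, KRT14 and KRT6A shared the last places with means of 2.50 to 3.60.

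Replicate 1 of VprBP sh stood apart from replicates 2 and 3 in several keratins. Relative to the mean of the other 2 samples it held more KRT5 (1.87 times) and KRT17 (1.60 times) and less KRT19 (0.572 times) and KRT7 (0.743 times). KRT18 went the other way from these luminal keratins, at 1.13 times, and KRT8 and KRT15 were at 0.845 and 1.14 times. In Control sh the ratios were 0.803 and 1.15 for KRT5 and KRT17 and 0.949 and 1.08 for KRT19 and KRT7. For KRT18, KRT8 and KRT15 they were 0.890, 0.834 and 0.912 in Control sh. Over all genes, too, replicate 1 lay apart in either group. Chi-square per degree of freedom was 2.45 (Control sh) and 2.32 (VprBP sh) for replicates 2 and 3, and 16.1 to 26.6 for pairs that include replicate 1. Each sample was kept as a replicate, although it is not known if replicates 2 and 3 are separate cultures. With replicates 2 and 3 of each group summed, KRT19 had a log2 fold change of 0.89 and lost its call. No other keratin changed its call in that fit.

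The known partners were then set side by side per kilobase. KRT5 over KRT14 was 0.564, 0.614 and 0.621 in Control sh and 331, 944 and 2602 in VprBP sh. KRT5 was thus left in VprBP sh with this partner at a few counts. KRT5 over KRT15, another basal type I keratin, was 3.45 ± 1.05 in VprBP sh against 35.1 ± 2.5 in Control sh (SD, n = 3). KRT8 over KRT18 stayed within 1.15 to 1.24 for Control sh and within 1.46 to 1.97 for VprBP sh, a higher ratio in each VprBP sh sample that nevertheless kept both partners within a factor of 2. KRT7 over KRT19 went from 1.03 ± 0.08 to 0.325 ± 0.051 (SD, n = 3). KRT4, the type II partner of KRT13 in internal stratified epithelia, moved against it. It was measured at 77, 143 and 194 counts in the Control sh samples and at 4713, 5498 and 7527 in the VprBP sh samples, with log2 fold change 5.27 (SE 0.21, edgeR adjusted p = 2.49e-08).

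**Figure D3:**
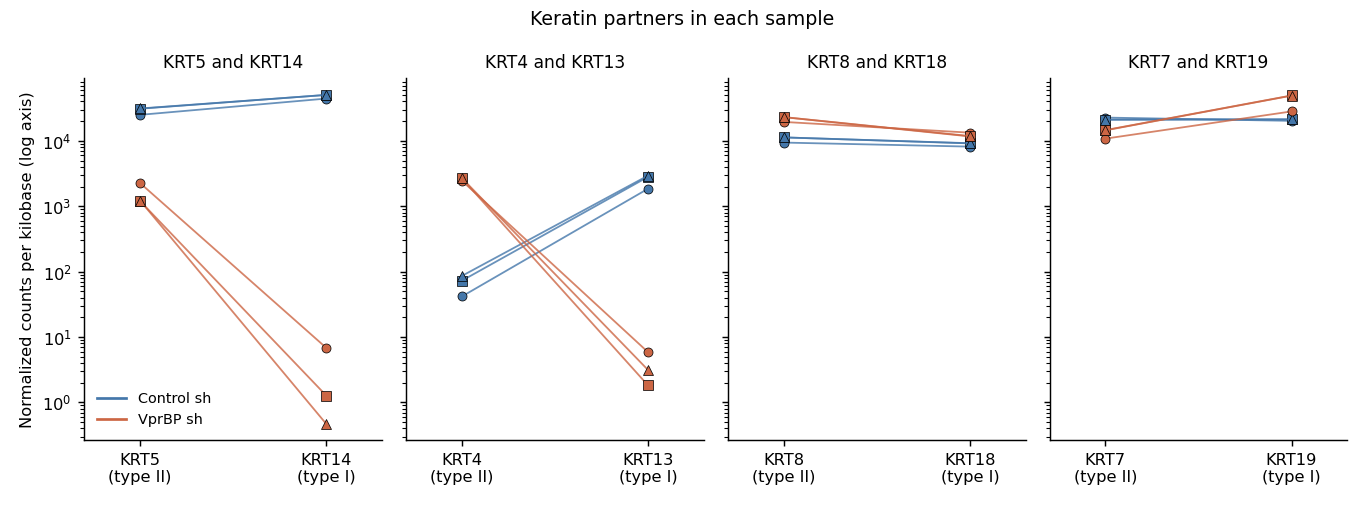
Normalized counts per kilobase of canonical transcript, on a log axis, for 4 pairs of a type II and a type I keratin. Each line joins the partners within 1 sample, with circles, squares and triangles for replicates 1, 2 and 3. The KRT5 to KRT14 lines drop steeply in VprBP sh, those of KRT4 and KRT13 cross between the groups, and those of KRT8 and KRT18 run close to level in both.

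The rest of the keratin family was read from a list of 18 other epithelial keratins, of which 15 have a row in the table analysed and 9 had enough counts to be tested. Of these 3 were called higher, 4 lower and 2 were not called, with a median log2 fold change of -0.97. Beside this, 24.5% of all 16756 genes tested were called higher and 22.0% lower. KRT16, the type I keratin that accompanies KRT6A in activated epidermis, fell from 865 ± 399 to 71.2 ± 13.9 normalized counts (SD, n = 3), and KRT6B and KRT6C, close copies of KRT6A, fell from 484 ± 231 to 7.26 ± 2.36 and from 63.8 ± 10.8 to 1.78 ± 1.61. KRT9, the keratin of palms and soles, fell from 81.9 ± 5.7 to 2.48 ± 1.26. The increases were KRT4, KRT23 (83.5 ± 64.0 to 283 ± 18) and KRT2 (2.56 ± 2.95 to 16.0 ± 2.3). KRT80 and KRT10 had log2 fold changes of -0.97 and -0.21 and were not called, and KRT10, the type I keratin of differentiating epidermis, had an adjusted p of 0.133 (edgeR). Of 26 hair and root sheath keratins, 12 have a row and 6 were tested. KRT31, KRT33B and KRT34 stood at 0 counts in each VprBP sh sample and were lower by at least 30.3-fold, 10.7-fold and 11.8-fold against a floor of 3 counts per sample. The 6 had a median log2 fold change of -6.62, or -3.49 with these 3 genes at their bounds. KRT81 fell from 67.2 ± 3.2 to 1.69 ± 0.81 normalized counts, while KRT86 rose from 9.58 ± 0.97 to 37.4 ± 9.4 normalized counts, and KRT38 went from 0, 0 and 2 counts to 120, 79 and 77.

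All 10 members lie in the 2 keratin clusters of the genome. The 4 type II members and KRT18 are on chromosome 12, in a stretch of 784 kb from KRT80 to KRT18, and the other 5 type I members are on chromosome 17, in a stretch of 970 kb from KRT222 to KRT17. Both directions occurred within each stretch, with runs of neighbours that fell. On chromosome 12, 4 of 12 genes tested were called higher and 5 lower, and on chromosome 17, 3 of 14 were called higher and 9 lower. Among all 16756 genes tested, 24.5% were called higher and 22.0% lower. KRT19 rose between KRT15, which was not called, and KRT9, which fell, and beyond KRT15 KRT13 fell by 9.47 on the log2 scale. KRT9, KRT14, KRT16 and KRT17 follow each other and all 4 fell. KRT8 and KRT18, at the end of the chromosome 12 cluster, were higher, while KRT81, KRT6B, KRT6C, KRT6A and KRT5, successive among the genes tested, all fell. The nearest genes outside the clusters that are not keratins had values of either sign on chromosome 12. EIF4B, next to KRT18, had a log2 fold change of -0.60 and TNS2 behind it one of 4.45. On chromosome 17 those that were tested were all lower in VprBP sh. EIF1, next to KRT17, had -0.75 and SMARCE1, beyond KRT222, -0.45. Farther out, HAP1 on the side of KRT17 had -2.79 and TNS4 on the side of KRT222 had -5.30, and both were called lower.

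**Figure D4:**
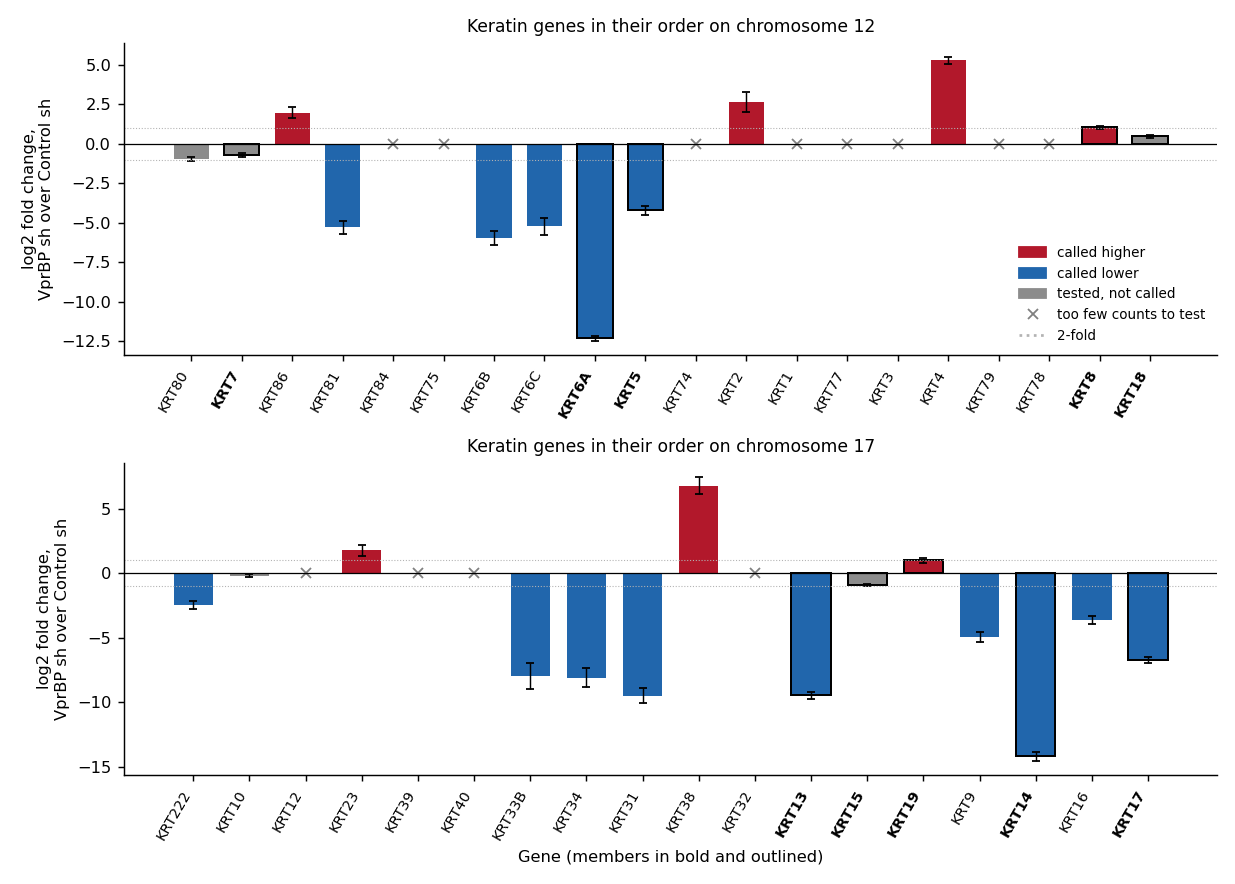
log2 fold change of VprBP sh over Control sh for the protein-coding keratin genes of the table, in their order on chromosome 12 and chromosome 17. Bars are edgeR estimates with standard errors, coloured by call, dotted lines mark 2-fold, crosses mark genes with too few counts to test, and members are in bold. Bars of opposite sign stand next to each other, as for KRT19 beside KRT15 and KRT9.

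Some keratins share sequence with close copies, which single-end reads of 50 bases may not tell apart. Among all 50-base windows of its canonical transcript, the share found exactly in a transcript of another gene in GENCODE 44 was 39.2% for KRT6A, most of it shared with KRT6C and KRT6B, 39.2% for KRT8, shared first with KRT8P3, 35.3% for KRT18, shared first with KRT18P11, 24.2% for KRT14, shared first with KRT16, and 17.4% for KRT17. It was 4.52% for KRT5 and between 1.02% and 1.79% for KRT7, KRT13, KRT15 and KRT19. For KRT6A, KRT8, KRT18, KRT14 and KRT17, how reads from the shared windows were divided between the copies is uncertain, and the window share does not measure the error of a count. The pseudogene rows of KRT8 held 0.770% to 0.917% of the counts of the gene and its pseudogenes together per Control sh sample and 0.845% to 1.18% per VprBP sh sample, and those of KRT18 at most 0.449% in any sample. With these rows added, the log2 fold changes of KRT8, KRT17, KRT18 and KRT19 were 1.04, -6.73, 0.48 and 1.01. With KRT6B and KRT6C added to KRT6A, it was -10.97. KRT8 and KRT18 overlap each other on opposite strands in GENCODE 44, and KRT7 overlaps KRT7-AS on the opposite strand and KRT86 on its own. The study's methods name a stranded library kit and the labels another kit, and the sources used here do not say if strand entered the counting.

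Genes known to bind or regulate keratin filaments were read from lists chosen with earlier results of these data known. Of 12 linker genes, which tie keratins to desmosomes, hemidesmosomes or centrosomes, all were tested, 2 were called higher, 4 lower and 6 were not called, with a median log2 fold change of -0.75. PPL, periplakin, went from 7732 ± 700 normalized counts (SD, n = 3) to 0 counts throughout VprBP sh, at least 2646-fold lower. PKP1, the plakophilin of stratified epithelium, went from 7258 ± 320 normalized counts to 0, 4 and 7 counts, PKP3 fell from 6811 ± 755 to 1394 ± 186, and PLEC, plectin, from 28433 ± 4541 to 6573 ± 559. EVPL, envoplakin, rose from 1063 ± 72 to 3967 ± 350. DSP, desmoplakin (14792 ± 1702 and 18428 ± 842), and JUP, plakoglobin (17758 ± 1147 and 10842 ± 1412), were not called.
Of 17 transcription factors known for keratin genes, 16 have a row and 15 were tested. Of these 4 were called higher, 3 lower and 8 were not called, with a median log2 fold change of -0.09. As for the linker genes, the share called was close to the 46.4% called among all 16756 genes tested. TP63, the master regulator of the basal epithelial state, was measured at 8715, 7670 and 8806 counts in the Control sh samples and at 9, 8 and 13 in the VprBP sh samples, with log2 fold change -9.86 (SE 0.16, edgeR adjusted p = 3.24e-10). GATA3, a factor of luminal epithelia, was measured at 7, 1 and 0 counts in the Control sh samples and at 1580, 1334 and 1873 in the VprBP sh samples. KLF5 fell from 9783 ± 481 to 2082 ± 169 normalized counts (SD, n = 3), and CEBPA rose from 255 ± 20 to 1892 ± 490. CEBPB, at 10461 ± 67 and 8052 ± 1856 normalized counts, and EHF, at 7151 ± 916 and 7953 ± 340, were not called. GRHL2 had 2995 ± 55 and 2394 ± 100 normalized counts and was not called.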

How the data were processed

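The sample titles gave the groups (Control sh and VprBP sh, 3 samples each). Single-end reads of 50 bases were aligned by the authors to hg38 (STAR) and quantified in Partek Flow. The deposited values are estimated counts per gene and sample, in part fractional, without normalization or pooling. The design had been written for counts, so values were rounded to whole counts. Genes were filtered with edgeR's default filter (minimum count 10), scaled by upper quartile factors (quantile 0.75) and tested with edgeR 4.0.16 in R 4.3.3 by the quasi-likelihood test over all 16756 genes, with no replicate block. The study's own test in Partek Flow is not installed, and edgeR took its place. At matching cutoffs edgeR called many more genes, 7778, than the paper reports. Calls needed a Benjamini-Hochberg adjusted p under 0.05 together with a fold change over 2. The standard error (SE) of a log2 fold change is its size over the root of its F statistic. A floor of 3 counts per sample equals 2.30 to 3.48 normalized counts. Intervals and floors cover counting error only. Coordinates are those of the table on hg38, whose starts and ends equal GENCODE 44 for all 10 keratins once the end is lowered by 1 base. The promoter sequence is from a set of RefSeq promoter windows, in which 2 of the 10 keratins have a window. The fit was tested on simulated data.
The members and lists were chosen with earlier results of these data known. Named genes are the 10 keratins and members of lists of other keratins, filament linkers, transcription factors, other intermediate filaments, cornified envelope genes and cell type markers, the targeted gene, genes of chromosome 9p and the genes flanking the keratin clusters. Alternatives were TMM factors, library size alone, DESeq2 1.42.0, 2 other filters, a replicate block, each sample left out, replicates 2 and 3 summed, pseudogene rows or KRT6B and KRT6C added, and shares without length. RT-qPCR, ChIP and cell assays were not analysed here. The result of 1 listed epithelial marker is not reported here.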

Additional observations from a re-analysis of the deposited data

How the results depend on the processing

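Each of the 10 keratins kept its direction and an adjusted p under 0.05 in every alternative that tested it, the largest adjusted p being 0.0116 for KRT18. Among the keratins that an alternative tested, calls were lost for KRT8 and KRT19, at the 2-fold cutoff, and DESeq2 added a call for KRT15. The number of members called higher, 2, was 0 with TMM factors and with DESeq2, and 1 with no filter on low counts, with a replicate block and with replicates 2 and 3 summed, and ran from 0 to 2 when each sample was left out. The number called lower, 5, became 2 when at least 10 counts were required in every sample, a filter that removes KRT6A, KRT13 and KRT14. The same filter took the number of all genes called from 7778 to 4690 and of other epithelial keratins from 7 to 3. DESeq2 called 11 of the latter, 2 more than edgeR tested. Scaling by library size alone moved the median over all genes tested from 0.08 to 0.29 (log2) and the log2 fold change of KRT7 from -0.70 to -0.49, with no keratin changing sign. Without division by length the basal or stratified share within the 10 keratins was 69.8% in Control sh and 3.48% in VprBP sh.
The samples share replicate numbers but nothing else is known to pair them. Across genes, the deviations from the group mean correlated at -0.06, 0.02 and -0.05 for replicates 1, 2 and 3. With a replicate block KRT19 was at 0.97 and lost its call, and no other keratin changed its call. Depth limits KRT6A, KRT13 and KRT14 in VprBP sh, where 13 to 19 counts per group set their ratios.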

Other observations

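Further lists were read in the same way, beside a background of 24.5% called higher and 22.0% called lower among all 16756 genes tested. This background applies to the count of each list in this section. The first list holds intermediate filament genes outside the keratins. Of 15 listed, 12 have a row in the table analysed and 10 were tested, with 5 called higher, 3 lower and 2 not called. VIM, vimentin, was measured at 0, 1 and 0 counts in the Control sh samples and at 50, 24 and 17 in the VprBP sh samples. LMNB1, a lamin of the nuclear envelope, rose from 2611 ± 492 to 7154 ± 98 normalized counts (SD, n = 3), while LMNA, at 11106 ± 268 and 15233 ± 1399, and LMNB2, at 10311 ± 581 and 5530 ± 73, were not called. NES, nestin, fell from 129 ± 27 to 3.51 ± 2.55, and SYNM, synemin, rose from 94.9 ± 26.3 to 360 ± 49.

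Of 11 genes of the cornified envelope, the protein shell of terminally differentiating keratinocytes, 9 have a row and 8 were tested, with 1 called higher, 6 lower and 1 not called. TGM1, the transglutaminase that crosslinks the envelope, fell from 2906 ± 529 to 207 ± 72 normalized counts (SD, n = 3), and IVL, involucrin, from 177 ± 14 to 37.7 ± 7.7. SPRR1A and SPRR2A stood at 0 counts throughout VprBP sh and were at least 9.77-fold and 54.9-fold lower. CNFN, cornifelin, went the other way, from 18.5 ± 10.4 to 112 ± 26.

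Of 10 mesenchymal markers, 9 have a row and 8 were tested, with 1 called higher, 6 lower and 1 not called. Summed, they held 39152 to 43053 normalized counts per Control sh sample and 708 to 945 per VprBP sh sample. Among them were FN1, fibronectin, at 31901 ± 2011 and 271 ± 67 (SD, n = 3), and SPARC, a matrix protein, at 6879 ± 352 and at 0, 0 and 1 counts. SNAI2, a repressor of epithelial genes, went from 1745 ± 375 normalized counts to 0 counts throughout VprBP sh, at least 597-fold lower. VIM, also on this list, was the marker called higher, from 0, 1 and 0 counts to 50, 24 and 17. Of 8 urothelial markers, 7 have a row and 6 were tested, with 3 called higher, 2 lower and 1 not called, among them UPK1B, a uroplakin, at 650 ± 62 and 0, and FOXA1, at 1265 ± 220 and 5141 ± 52. Of 10 epithelial markers that are not keratins, 4 were called higher. CLDN4 and CLDN7, claudins of tight junctions, rose from 1666 ± 620 to 5004 ± 640 normalized counts (SD, n = 3) and from 1932 ± 518 to 6195 ± 720. CDH1, E-cadherin, at 10117 ± 557 and 6543 ± 823, was not called, nor were the melanocyte markers MITF and PMEL, with log2 fold changes of 0.46 and 0.07. The mesenchymal and urothelial lists differ between the same groups as the keratins, and their part in the keratin differences was not tested.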
